A study of Mus musculus with 6 samples.

Results

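The potassium channel genes of mouse brown adipose tissue (BAT) were taken as all genes whose symbol begins with Kcn. The array held 156 probes for 98 such genes, 94 protein-coding and 4 noncoding, among 23462 genes matched to a probe. A gene was a member when the scanner software called at least 1 of its probes well above background on 3 or more of the 6 arrays, WT and KO arrays counted alike, and 61 genes met this. Of these, 58 could be compared between the groups. The other 3, *Kcnh6*, *Kcnj8* and *Kcns3*, had too many spots marked as uneven or as outliers. The remaining 37 genes missed the detection rule, and 30 of them were above background on no array, among them *Kcna3* and *Kcna4*. At the edge of the rule, *Kcne1l*, *Kcna10* and *Kcnb2* were above background on 3 arrays and *Kcnmb4* on 2. The members were chosen by symbol and by these detection calls, and no difference between the groups entered the rule.

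The samples were BAT of 3 wild-type (WT) and 3 miR-22 knockout (KO) male mice, 8 weeks old, with 1 mouse on each single-dye Agilent array. The KO was constitutive, so miR-22 was missing from every cell type of the depot and of the body, and no treatment was given in the labels of either group. The position codes in the names of the scanner output put WT replicates 1 and 2 in the first row of a slide. They put WT replicate 3 and the 3 KO arrays in a second row. A position code gives the place within a slide, so whether all 6 arrays shared 1 slide is not established here. Every value by slide row given here rests on those codes. The question was which genes differed in BAT without miR-22.

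A value here is a scaled log2 signal, the log2 of a probe's background-subtracted signal over the 75th percentile of its array. A value of 0 is therefore that percentile, and a difference of 1 is a doubling. Differences are KO mean minus WT mean, with standard errors (SE) from limma, a linear model that shares the spread between genes. Probes differ in how brightly they bind, so values were compared between arrays and not between genes. The 14 brown adipocyte markers, *Ucp1* included, were above background on all 6 arrays, and their mean lay between 3.15 and 3.57 in WT and between 2.81 and 3.39 in KO. In whole tissue, fewer cells of a type and less RNA per cell cannot be told apart.

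The microRNA that the mice lack acts through its seed, the stretch near the 5′ end that pairs with target transcripts and shown here in capitals (bases 2 to 8). Both mature arms are printed because the KO removes both, from chromosome 11 of GRCm38.p6 (RefSeq), at chr11:75463772-75463793 and chr11:75463734-75463755 on the plus strand.
mmu-miR-22-3p: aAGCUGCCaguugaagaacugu
mmu-miR-22-5p: aGUUCUUCaguggcaagcuuua
The array measured the host transcript *Mir22hg* and not the microRNA. Its scaled log2 signal was 1.20, 1.69 and 1.22 in WT and 2.02, 2.11 and 2.23 in KO, so the transcript was higher in every KO mouse (difference 0.75, SE 0.18, limma adjusted p = 0.108). Where the probe lies relative to the deleted stretch is not given in the sources used here, so this value does not check the genotype labels.

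Potassium channels let potassium leave the cell and pull the membrane toward a negative resting voltage. Voltage-gated pores open when the membrane depolarizes, leak channels and inward rectifiers set the resting voltage, and ion-activated pores answer to calcium or sodium. Accessory subunits carry no pore of their own and alter the pores they join. In brown fat they bear on how sympathetic stimulation depolarizes the adipocyte, and they also act in the vessels, nerves and muscle that surround it.

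At an unadjusted limma p under 0.05, the threshold used in the study's methods, 9 of the 58 tested potassium channel genes were higher and 5 were lower in KO mice. That was 15.5% higher against a background of 10.0% of all 14711 genes tested, and 8.62% lower against 8.82%. After Benjamini-Hochberg adjustment over all genes, *Kcne3* and *Kcnc2* rose and no member fell, with 0.143% of all genes called higher and 0.0408% lower. Under quantile normalization the split turned, with 7 members higher (12.1%, against 7.95% of all genes) and 11 lower (19.0%, against 10.2%) and none past the adjusted threshold, although all 4 genes with the smallest p kept their direction and stayed past the unadjusted threshold. The Kcna to Kcnd pores, 15 of the 58 tested genes, held 6 of the 14 calls, and the plot of these 14 genes by array shows their values.

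**Figure D1:**
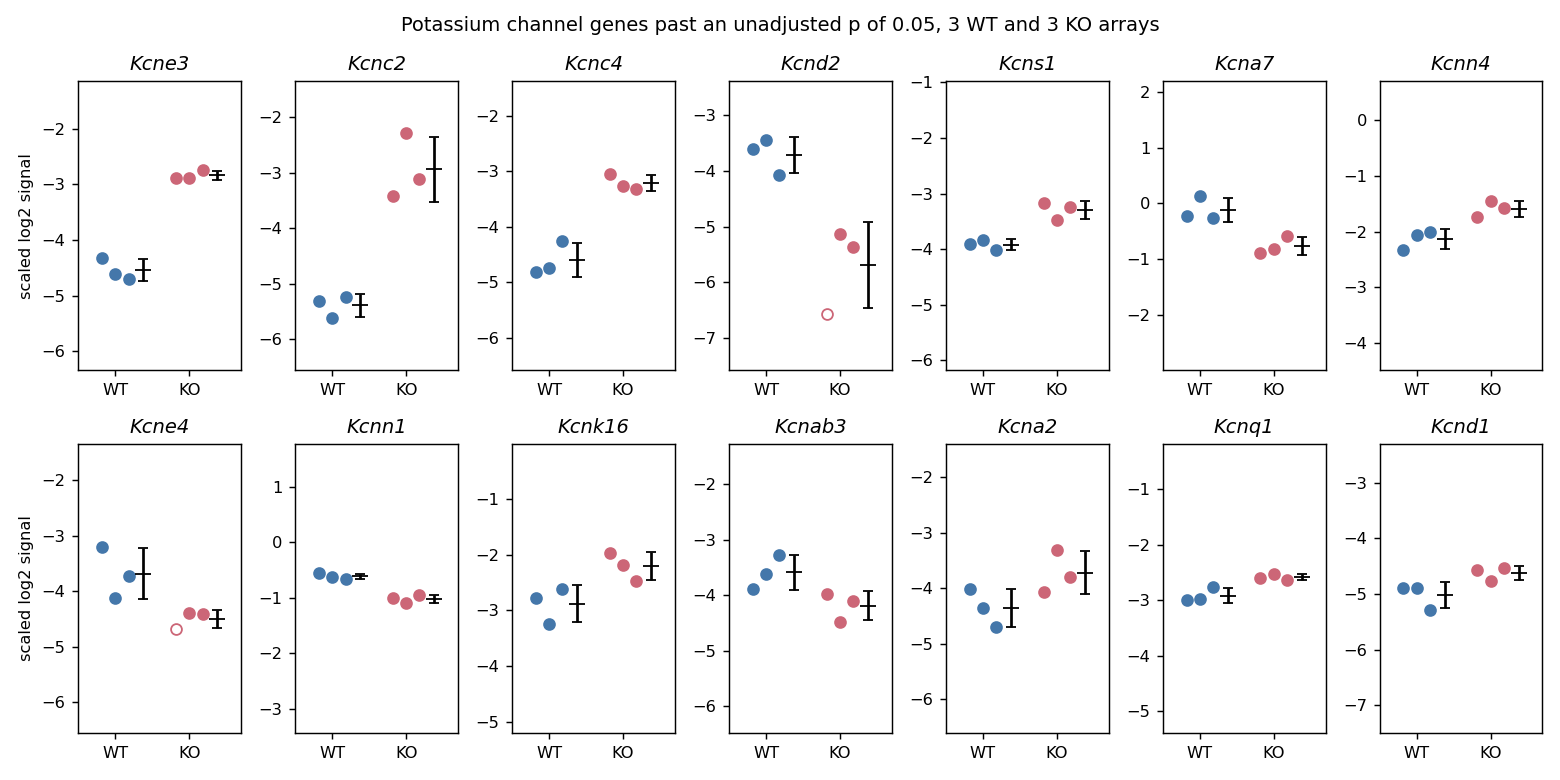
Scaled log2 signal of the 14 potassium channel genes past an unadjusted limma p of 0.05, in order of p, on 3 WT (blue) and 3 KO (red) arrays, with the mean and SD in black. Open points were not well above background, and every panel spans the same number of log2 units. The groups do not overlap in 13 of the 14 genes, which choosing genes by p with 3 arrays per group favors.

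Among the voltage-gated pores of the Kcna to Kcnd families, 15 of 17 genes were tested. In KO mice 4 were higher (26.7%, against 10.0% of all genes) and 2 were lower (13.3%, against 8.82%). *Kcnc2*, a fast-closing Kv3 pore best known from fast-spiking neurons, was at -5.32, -5.61 and -5.23 in WT and at -3.41, -2.29 and -3.12 in KO. All 3 KO values lay above all WT values, with KO replicate 2 the highest. The rise was 2.45 (SE 0.29), or 5.45-fold (limma adjusted p = 0.0432), the largest difference of any tested member. With normexp background correction, which adds a constant to every signal, it was 1.21, or 2.32-fold. The other *Kcnc2* probe was above background on no array.

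*Kcnc4*, another Kv3 pore, found in skeletal muscle and neurons, was at -4.81, -4.74 and -4.25 in WT and at -3.05, -3.26 and -3.33 in KO. The KO values again lay above all WT values. The difference was 1.39 (SE 0.19), 2.61-fold, and its limma adjusted p of 0.0508 fell just short of the threshold. A separate *Kcnc4* probe, also above background on all 6 arrays, gave 0.89 (SE 0.34).

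*Kcnd2*, a Kv4 pore of the transient A-type current in neurons and heart, moved the opposite way. It was at -3.61, -3.45 and -4.07 in WT and at -6.58, -5.13 and -5.37 in KO, where KO replicate 1 was not above background. The groups did not overlap, and the difference was -1.98 (SE 0.39, limma adjusted p = 0.0816). Without KO replicate 1 it was -1.54 (limma adjusted p = 0.0825). Its relative *Kcnd1* was 0.40 higher (SE 0.16), and the third Kv4 gene, *Kcnd3*, was 0.24 higher (SE 0.14) and did not pass.

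In the Kcna family, *Kcna7*, a pore of skeletal muscle and heart, was at -0.23, 0.13 and -0.26 in WT and at -0.90, -0.82 and -0.59 in KO. It was lower in all 3 KO mice, by a difference of -0.65 (SE 0.17, limma adjusted p = 0.128). *Kcna2*, a pore of nerve axons, differed by 0.64 (SE 0.25), and it was the one called member whose groups overlapped, since KO replicate 1 (-4.07) lay below WT replicate 1 (-4.02). *Kcna5*, the brightest probe of this group, was at 0.73, 0.24 and 0.35 in WT and at 0.94, 0.67 and 0.83 in KO, which overlapped (0.38, SE 0.17, limma adjusted p = 0.297).

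Of 8 tested genes among 12 accessory subunits, 1 was higher (12.5%, against 10.0% of all genes) and 2 were lower (25.0%, against 8.82%). *Kcne3*, a single-pass subunit known to join both the Kv3 pore *Kcnc4* and the pore *Kcnq1*, had the smallest p of all members. It was at -4.32, -4.61 and -4.70 in WT and at -2.89, -2.88 and -2.74 in KO. No KO mouse overlapped the WT range, and the 3 KO values spanned less than the WT values. The rise was 1.71 (SE 0.15), 3.27-fold (limma adjusted p = 0.0283), and both of the named pore partners were also higher, *Kcnc4* as above and *Kcnq1* by 0.33 (SE 0.13, limma adjusted p = 0.254). A different *Kcnq1* probe gave 0.41 (SE 0.15).

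The related subunit *Kcne4*, which damps *Kcnq1* and some Kcna pores, was at -3.21, -4.13 and -3.72 in WT and at -4.69, -4.40 and -4.42 in KO. It was lower in every KO mouse (-0.81, SE 0.24, limma adjusted p = 0.162), although KO replicate 1 was not above background. *Kcnab3*, a cytoplasmic beta subunit of Kcna pores, differed by -0.60 (SE 0.21, limma adjusted p = 0.212) without overlap of the groups. The brightest probe of the group, for *Kcnab1*, differed by 0.098 (SE 0.25), with KO replicate 2 alone above the WT range. The difference was -0.12 without KO replicate 2 and also turned negative under 5 other settings.

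The silent modifiers, Kcnf, Kcng, Kcns and Kcnv, form no channel alone and change the voltage-gated pores they join. Just 3 of 10 were tested, and 1 was higher (33.3%, against 10.0% of all genes) and none lower (against 8.82%). *Kcns1*, known from sensory neurons, was at -3.90, -3.83 and -4.02 in WT and at -3.17, -3.47 and -3.23 in KO, with no overlap. It was 0.63 higher (SE 0.14, limma adjusted p = 0.107). *Kcng2* differed by 0.070 (SE 0.19), and this was -0.077 without WT replicate 3 and -0.037 with muscle signal as a covariate.

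Among Kcnh and Kcnq pores, 8 of 13 were tested, and *Kcnq1*, which was higher, was the single call (12.5%, against 10.0% of all genes). *Kcnh4* was at -1.83, -3.07 and -1.35 in WT and at -1.22, -1.46 and -1.48 in KO. Its difference of 0.70 (SE 0.41) rested largely on the low WT replicate 2, and within the second slide row the difference was -0.034. *Kcnh6*, a relative of the heart channel gene *Kcnh2*, was left out of the fit because 3 of its 6 spots were marked, and it is described here after its values were seen. With the marked spots kept it was at 3.67, 4.05 and 3.79 in WT and at 2.50, 2.67 and 3.17 in KO. These values come from 1 probe, on a predicted transcript, and the other *Kcnh6* probes were above background on no array. The signal was lower in all 3 KO mice by 1.05 on the log2 scale (log2 difference -1.05, SE 0.21, limma adjusted p = 0.0800), and the marked spots were those of WT replicate 3, KO replicate 1 and KO replicate 2.

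**Figure D2:**
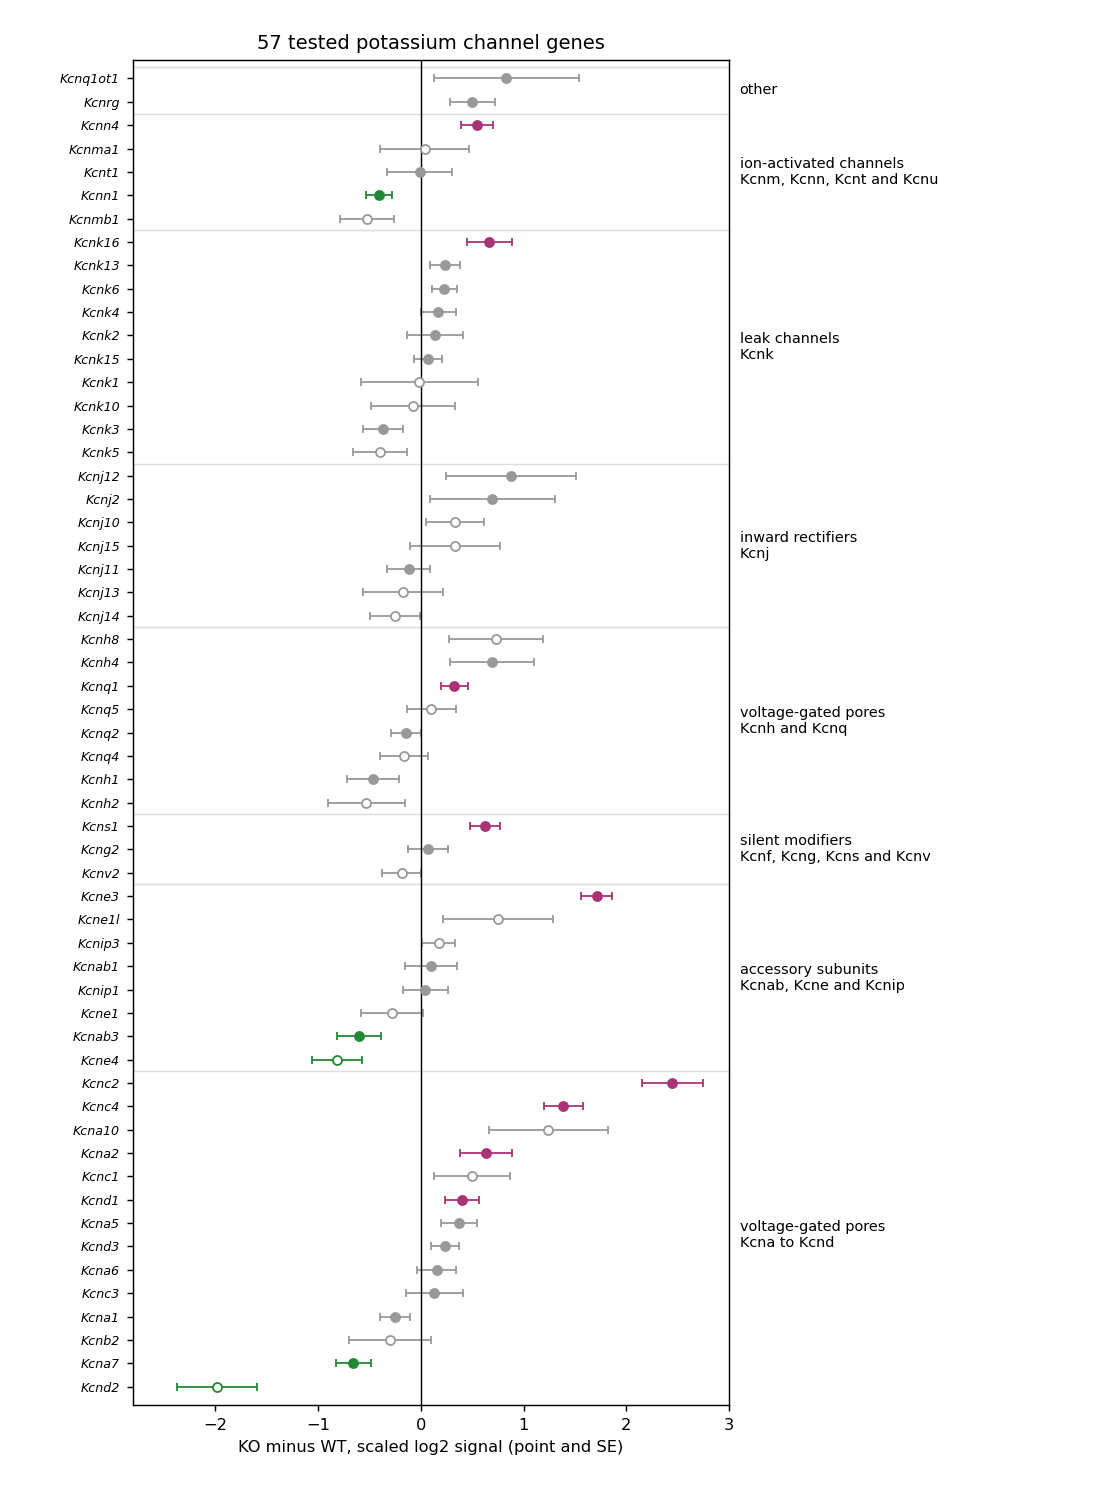
Difference between KO and WT with its SE for 57 of the 58 tested potassium channel genes, by family. Purple genes were higher and green genes lower at an unadjusted limma p under 0.05, grey genes did not pass, and open points were below background on 1 to 3 arrays. The differences run from -1.98 for *Kcnd2* to 2.45 for *Kcnc2*, and no inward rectifier passed.

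Leak channels of the Kcnk family were tested for 10 of 14 genes. *Kcnk3*, or TASK-1, an acid-sensitive leak pore known to restrain the depolarization and thermogenesis of brown adipocytes, was at 2.97, 3.27 and 2.61 in WT and at 2.59, 2.46 and 2.72 in KO. The groups overlapped, since WT replicate 3 lay below KO replicate 3, and the difference was -0.36 (SE 0.19, limma adjusted p = 0.359). Without WT replicate 3 it was -0.53, past the unadjusted threshold (limma adjusted p = 0.277), and within the second slide row it was -0.027. The one call was *Kcnk16*, a leak pore of pancreatic islets. That was 10.0% higher, against 10.0% of all genes, and none was lower, against 8.82%. *Kcnk16* was at -2.78, -3.25 and -2.61 in WT and at -1.97, -2.19 and -2.47 in KO (0.67, SE 0.22, limma adjusted p = 0.184). Probes of *Kcnk4* disagreed, with 0.17 (SE 0.17) for the brighter and -0.67 (SE 0.17) for the dimmer.

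None of the 7 tested inward rectifiers, of 15 on the array, passed the unadjusted threshold, where 10.0% of all genes were higher and 8.82% lower. *Kcnj11*, the pore of the ATP-sensitive channel, differed by -0.12 (SE 0.21, limma adjusted p = 0.773), and a dimmer probe gave 0.80 (SE 0.37). Its vascular relative *Kcnj8* had 4 marked spots. With these kept it was at 1.79, 1.51 and 1.41 in WT and at 1.81, 1.44 and 1.65 in KO, a difference of 0.063 (SE 0.16). Both regulatory subunits of these channels were on a list of channel partners. *Abcc8*, the sulfonylurea receptor of islet-type channels, was at -3.66, -3.27 and -3.62 in WT and at -2.67, -2.40 and -2.64 in KO, higher in every KO mouse (0.95, SE 0.16, limma adjusted p = 0.0686). *Abcc9*, the receptor paired with *Kcnj8* in vessels, differed by -0.25 (SE 0.27) over the 4 arrays whose spot was unmarked.

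*Kcnj2* and *Kcnj12*, the strong inward rectifiers of muscle, had the widest spread between KO mice. *Kcnj12* was at -2.92, -3.51 and -4.43 in WT and at -3.71, -1.39 and -3.13 in KO. *Kcnj2* was at -3.59, -4.00 and -4.42 in WT and at -4.47, -1.90 and -3.55 in KO. Both were far higher in KO replicate 2 than on any other array. The mean of 20 skeletal muscle genes, 12 of them above background on all 6 arrays, was 2.08, 1.21 and -4.89 in WT and -0.25, 3.20 and 1.17 in KO. It too was highest in KO replicate 2. The muscle mean and *Kcnj12* were lowest in WT replicate 3, and *Kcnj2* was lowest in KO replicate 1. The muscle mean did not separate the groups (two-sided exact permutation p = 0.7 over 3 against 3 arrays, where the smallest possible is 0.1). Of the 57 members with 3 unmarked values per group, 17 were highest in KO replicate 2 (29.8%, against 21.1% of 11576 genes), and the part of muscle in their values was not tested.

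With the muscle mean as a covariate, the difference of *Kcnj12* was 0.35 in place of 0.88. *Kcna2* (0.43) and *Kcnd1* (0.32) no longer passed the unadjusted threshold, and the other 12 called members did. The differences were 1.65 for *Kcne3*, 2.39 for *Kcnc2*, 1.53 for *Kcnc4*, -2.24 for *Kcnd2* and -0.70 for *Kcna7*, and neither *Kcne3* (limma adjusted p = 0.0573) nor *Kcnc2* (limma adjusted p = 0.0829) passed after adjustment.

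**Figure D3:**
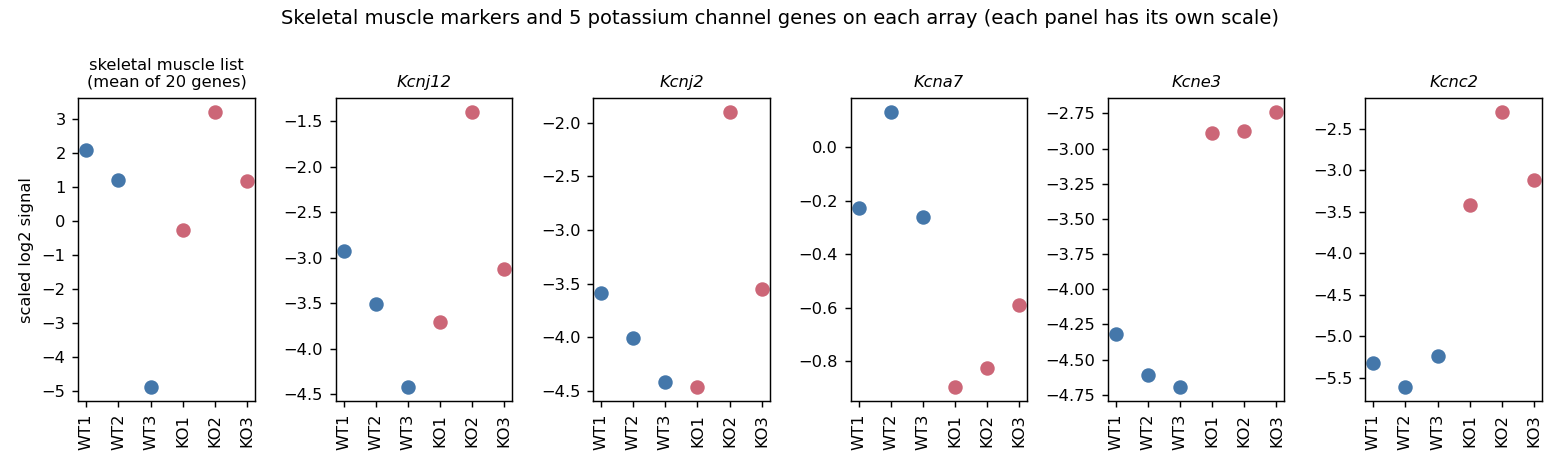
Scaled log2 signal on each WT (blue) and KO (red) array of the skeletal muscle list (mean of 20 genes) and of 5 potassium channel genes, each panel on its own scale. *Kcnj12*, *Kcnj2* and also *Kcnc2* peaked with the muscle list in KO replicate 2. *Kcna7*, *Kcne3* and *Kcnc2*, which had all passed the unadjusted threshold, separated WT from KO.

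Other cell types in the depot were read from marker lists. The 15 detected nerve and Schwann cell genes averaged -1.19, -1.32 and -1.90 in WT and -1.90, -1.44 and -1.82 in KO, with *Dbh* not detected (difference -0.25, two-sided exact permutation p = 0.4). The mean of the 12 smooth muscle and pericyte genes lay between 2.23 and 2.35 in WT and reached at most 2.18 in KO. All KO arrays were below all WT arrays (-0.17, two-sided exact permutation p = 0.1, the smallest possible). Within the list *Cspg4*, *Rgs5*, *Mylk* and *Myh11* were lower in every KO mouse, *Pdgfrb* was higher in every KO mouse, and the other genes overlapped. *Kcnmb1*, the beta subunit of the calcium-activated channel in smooth muscle, was below the WT range in every KO mouse and did not pass (-0.52, SE 0.26, limma adjusted p = 0.335). KO replicate 1 was not above background, and KO replicates 2 (-5.40) and 3 (-5.36) lay just under the lowest WT value (-5.33). Its other probe was above background on no array. The macrophage and lymphocyte lists differed by 0.23 and 0.21 (two-sided exact permutation p = 0.2 and 0.4). The B cell genes *Cd79a* and *Ms4a1* were among those not detected, while the B cell gene *Cd79b* was above background on all 6 arrays. Endothelium differed by -0.039. The part of these cells in the channel values was not tested.

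Of the 12 ion-activated channel genes, 5 were tested. Of these 1 was higher (20.0%, against 10.0% of all genes) and 1 was lower (20.0%, against 8.82%). *Kcnn4*, the intermediate calcium-activated pore of lymphocytes, red cells and macrophages, was at -2.34, -2.06 and -2.01 in WT and at -1.74, -1.45 and -1.58 in KO. It was higher in every KO mouse by 0.54 (SE 0.15, limma adjusted p = 0.147), and its dimmer probes gave 0.66 and 0.42. *Kcnn1*, a small-conductance calcium-activated pore, was at -0.56, -0.63 and -0.66 in WT and at -1.01, -1.10 and -0.95 in KO. It was lower in every KO mouse (-0.41, SE 0.12, limma adjusted p = 0.168), while a dimmer probe gave -0.050 (SE 0.31). The large-conductance pore *Kcnma1* differed by 0.037 (SE 0.44). *Lrrc52*, an auxiliary gamma subunit of large-conductance channels on the partner list, was at -3.10, -2.68 and -2.58 in WT and at -5.31, -5.17 and -4.60 in KO, where 2 of 3 arrays were above background. It fell by 2.24 on the log2 scale (SE 0.24, limma adjusted p = 0.0425).

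Non-overlapping groups were counted on the same scaled values as the calls, so these counts are not separate evidence for a split of directions. Of the 57 members with 3 unmarked values per group, 12 (21.1%) had all KO values above all WT values, against 14.2% of all such genes, and 6 (10.5%) had all below, against 14.7%. The mean was higher in KO for 35 of the 58 (60.3%, against 47.1%), with a median difference of 0.12 where that of all genes was -0.028. Among the 36 members above background on all 6 arrays, 9 were higher (25.0%, against 10.2%) and 3 lower (8.33%, against 8.94%). In the 22 dimmer members, none was higher, against 9.23% of all genes above background on 3 to 5 arrays, and 2 (9.09%) were lower, against 8.04%. This split used detection on the KO arrays too, and KO replicate 1 had the fewest spots above background (55.8%). A low value there can place a member in the dimmer set. The split is therefore not independent of the direction of change, and no conclusion is drawn from it. The shares of all members depended on scaling, and the median was -0.032 with quantile normalization, where that of all genes was -0.034. With the slide row in the model, 8 of the 14 called members stayed past the unadjusted threshold. The 6 that did not were *Kcna7* (-0.51), *Kcnn4* (0.42), *Kcne4* (-0.77), *Kcnn1* (-0.37), *Kcnk16* (0.40) and *Kcnq1* (0.17). In that model 10.3% of members were higher, against 5.93% of all genes, and 3.45% were lower, against 3.00%. *Kcne3* (1.87, limma adjusted p = 0.144) and *Kcnc2* (2.29, limma adjusted p = 0.299) then missed the adjusted threshold.

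The members outside these families were the growth-suppressing regulator *Kcnrg*, at 0.50 (SE 0.22, limma adjusted p = 0.270), and *Kcnq1ot1*, the imprinted noncoding transcript of the *Kcnq1* locus. The *Kcnq1ot1* probe differed by 0.83 (SE 0.70) because WT replicate 2 was at -3.48 while the other 4 unmarked arrays lay between -1.24 and -1.06. Its other testable probe gave 0.25 (SE 0.13).

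Beyond the channels, 17 of the 27 partner genes could be tested, and *Abcc8* (5.88% higher, against 10.0% of all genes) and *Lrrc52* (5.88% lower, against 8.82%) were the 2 calls, with a median difference of -0.063. Of 30 genes that pump or co-transport potassium or regulate cell volume, 23 were tested, 3 were higher (13.0%, against 10.0% of all genes) and 3 were lower (13.0%, against 8.82%), and the median was -0.073. *Atp1a4*, a sodium pump subunit best known from sperm, was higher by 1.84 (SE 0.42, limma adjusted p = 0.107), on 4 arrays above background. The chloride cotransporter *Slc12a4* was at 1.32, 1.42 and 1.40 in WT and at 1.91, 1.81 and 1.98 in KO, higher in every KO mouse by 0.52 (SE 0.13, limma adjusted p = 0.115). *Lrrc8c*, a subunit of the volume-regulated anion channel, was higher by 0.81 (SE 0.24, limma adjusted p = 0.168), with 1 KO spot marked. The neuronal chloride cotransporter *Slc12a5* was at -2.51, -2.26 and -2.50 in WT and at -2.79, -3.25 and -3.41 in KO (-0.73, SE 0.20, limma adjusted p = 0.137). *Atp12a* and *Slc12a9* differed by -0.52 (SE 0.20) and -0.42 (SE 0.18), both with overlapping groups.

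The leading genes were recomputed under 19 other settings, shown in the plot of differences by setting. *Kcne3*, *Kcnc2* and *Kcnc4* stayed higher and past the unadjusted threshold in all 19, and *Kcnd2* stayed lower and past it in the 18 that tested it. The adjusted threshold was passed in 9 settings by *Kcne3*, in 7 by *Kcnc2*, in 3 by *Kcnc4* and in 2 by *Kcnd2*. When WT replicate 1, 2 or 3 or KO replicate 2 or 3 was left out, neither *Kcne3* nor *Kcnc2* passed after adjustment (limma adjusted p between 0.0704 and 0.154). Without KO replicate 1, both did (limma adjusted p = 0.0494 for each).

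**Figure D4:**
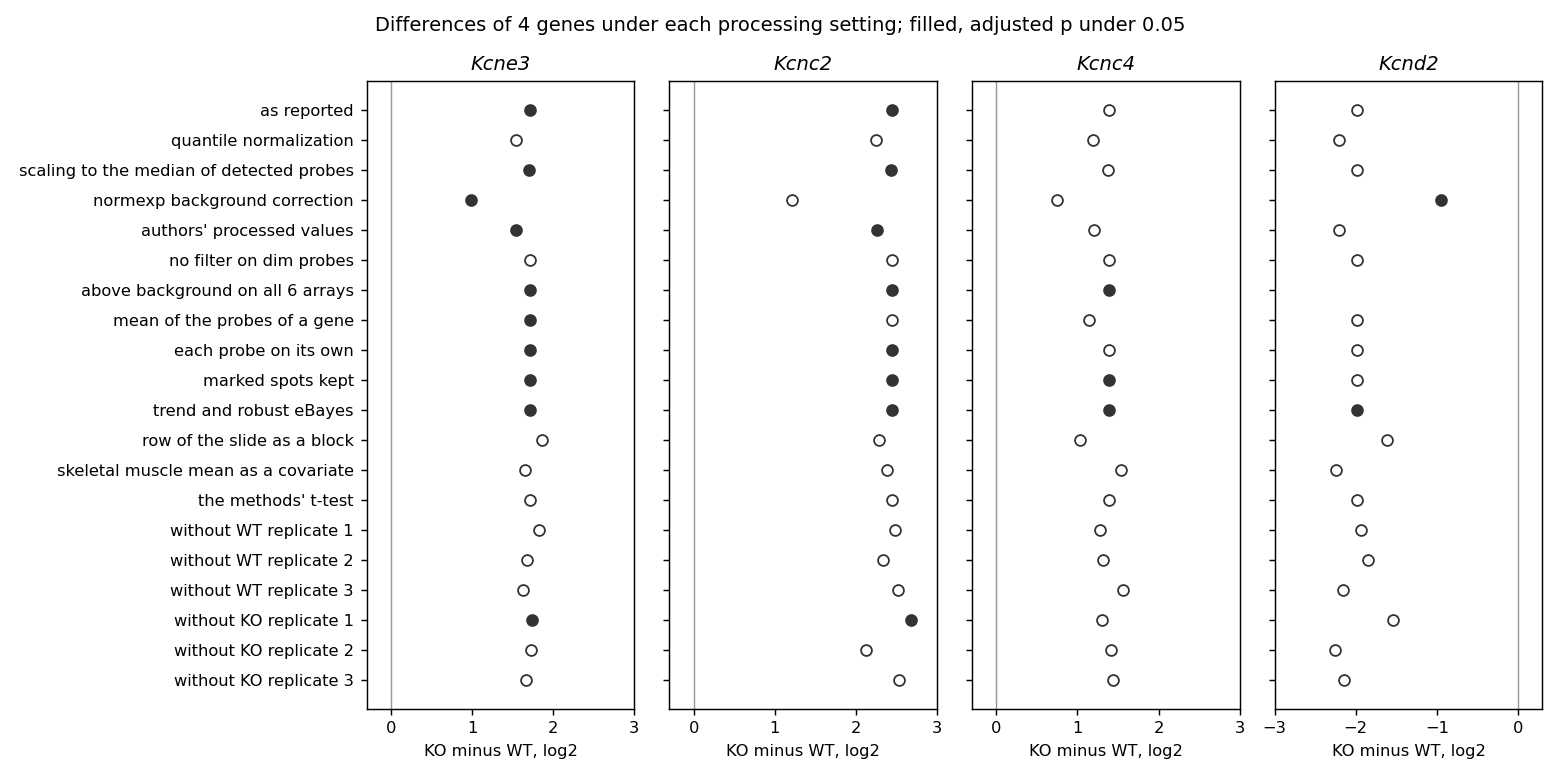
KO minus WT log2 difference of *Kcne3*, *Kcnc2*, *Kcnc4* and *Kcnd2* as reported and under each other processing setting, filled where the Benjamini-Hochberg adjusted p was under 0.05. No setting turned a direction, and normexp background correction gave the smallest differences, at 0.99 for *Kcne3*, 1.21 for *Kcnc2*, 0.74 for *Kcnc4* and -0.95 for *Kcnd2*.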

How the data were processed

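Total RNA from the BAT of the 6 mice, 3 WT and 3 KO, was hybridized to single-dye Agilent mouse arrays, and arrays were grouped by their labels. The authors deposited intensity values of Agilent Feature Extraction (11.5.1.1 per the file headers, 10.7 per the labels), already background-subtracted, and a table of log2 values of unstated processing, which served as an alternative. Each intensity was scaled to percentile 75 of its array, controls excluded, before log2 was taken. Spots that the software marked were dropped, and a gene needed 2 or more clean values in WT and in KO. RefSeq (GRCm38.p6) gave the gene names, with 1 probe per gene, the brightest that could be tested. Groups were compared with limma 3.58.1 under R 4.3.3, two-sided, with Benjamini-Hochberg adjustment over 14711 genes. The methods' software, SAM, was not run. The code was tested on simulated data.

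The members and lists were chosen with earlier results of these data known. The values of 1 tested member are not reported here. Named genes were those past an unadjusted p of 0.05, the brightest of each family, *Kcnk3*, *Kcnj8*, *Kcnj11*, and the called partner genes with *Abcc8* and *Abcc9*. *Kcnd3*, *Kcnj2*, *Kcnmb1*, *Kcnma1*, *Kcnk4*, *Kcnrg*, *Kcnh6* and *Mir22hg* were added after their values were seen.

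Between 55.8 and 66.5% of spots per array were above background (KO replicate 1 lowest), 4.87 to 17.1% were marked (WT replicate 3 and KO replicate 1 most) and none was saturated. Of the potassium channel probes, 55 to 86 were above background. With 3 arrays per group, their number limits the precision.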

Additional observations from a re-analysis of the deposited data

How the results depend on the processing

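Of the 14 called genes, *Kcna2*, *Kcnq1* and *Kcnd1* kept their call in 9, 7 and 6 of 19 settings. No paired analysis was possible because replicate numbers follow only the order of the samples. Counts are given as lower and higher members at an unadjusted p under 0.05 (5 and 9 as reported). Quantile normalization gave 11 and 7 (19.0 and 12.1%, against 10.2 and 7.95%), 0 higher after adjustment and a median of -0.032. The authors' processed values gave 11 and 7 over 53 genes (20.8 and 13.2%, against 11.8 and 8.56% of all genes), with a median of -0.062. Normexp correction gave 6 and 4 (10.3 and 6.90%, against 8.98 and 6.07%), with 1 lower and 1 higher after adjustment and a median of -0.028. With no filter on dim probes (96 genes) 0 passed after adjustment and the median was 0.33, with 0.14 for all genes. With detection on all 6 arrays (37 genes), a filter that also uses the KO arrays, 3 were lower (8.11%, against 9.98% of all genes). In that setting 10 were higher (27.0%, against 11.2%), 3 were higher after adjustment and the median was 0.23. The mean of a gene's probes left 1 higher after adjustment, and a trend with robust eBayes gave 1 lower. With slide row as a block 2 were lower (3.45%, against 3.00%), and this fit, the muscle covariate and the methods' t-test each left 0 higher after adjustment. At an unadjusted p under 0.05 they gave 6, 8 and 8 higher (10.3, 13.8 and 13.8%, against 5.93, 9.14 and 8.04% of all genes). Leaving out 1 array gave 4 to 7 lower, 6 to 8 higher, 0 to 2 higher after adjustment and a median of 0.056 to 0.21. The lower members were 7.14 to 12.1% of those tested, against 5.60 to 10.3% of all genes. Without KO replicate 2 or 3 their share was below that of all genes. The share of higher members, at most 14.5%, was above that of all genes (8.34 to 9.76%) whichever array was left out. Directions turned in 4 genes that had not passed. *Kcnab1* was at -0.082 with quantile normalization, -0.080 with the processed values, -0.031 with normexp, -0.036 with the muscle covariate and -0.12 to 0.28 with 1 array left out. *Kcng2* was at -0.037 with the muscle covariate and -0.077 to 0.26 with 1 array left out, and *Kcnh4* was at -0.034 with the row block. *Kcnj11* was at 0.34 as the mean of its probes, 0.0067 with the muscle covariate and -0.32 to 0.054 with 1 array left out. The causes were not tested. Dim probes limit what could be measured, since 37 genes missed the detection rule.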
